A study of Homo sapiens with 6 samples.

Results

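Glutathione is the main thiol antioxidant of the cell, and its supply of cysteine depends in many cultured cells on the import of cystine. The 10 genes described here carry mRNA for the cystine transporter (SLC7A11 and SLC3A2), the enzymes that build glutathione (GCLC, GCLM and GSS), an enzyme that breaks it down (CHAC1), peroxidases that spend it (GPX1 and GPX4), a glutaredoxin (GLRX) and the quinone reductase AIFM2. They were found by symbol among 20036 deposited Ensembl gene identifiers, and all 10 had a row. The genes were selected on earlier results of the same comparison of corilagin with DMSO. The values below therefore describe them and are not a test of them.

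RNA-seq was done on MV411, a long-cultured human leukaemia line (acute myeloid, monocytic) that carries a rearranged KMT2A gene and FLT3 with an internal tandem duplication, and whose genotype is labelled as wild type in both groups. Cells received the ellagitannin corilagin, a polyphenol from plants, or DMSO, the solvent control, for 48 h, and each group had 3 libraries. The sources used here do not give the dose. Nothing in the labels says whether the libraries came from separate cultures, so the spread between them may be technical. The unit is FPKM, which divides the fragments of a gene by its length and by the library's total, so the levels of different genes can be set side by side.

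SLC7A11 exchanges extracellular cystine for glutamate, and SLC3A2 is the heavy chain that brings it and several other amino acid transporters to the cell surface. Inside the cell cystine is reduced to cysteine. Glutamate-cysteine ligase joins cysteine to glutamate, with GCLC as its catalytic and GCLM as its modifier subunit, and GSS adds glycine. CHAC1 cleaves glutathione in the cytosol, and its gene is induced by the transcription factors of the integrated stress response. GPX4 reduces lipid peroxides within membranes and is the central enzyme that holds back ferroptosis, an iron-dependent death by lipid peroxidation, while AIFM2 does so independently of glutathione through reduced quinones.

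The library totals behind the FPKM values, inferred from their steps, were 17776956 to 21640689 fragments. Fragments recovered per gene summed to 99.96% to 100.01% of these totals. The totals are thus close to the fragments assigned to genes and are not exact. All 11 myeloid and leukaemia markers checked averaged 1 FPKM or more over the 6 libraries, with summed levels of 549 to 551 FPKM after corilagin and 480 to 531 FPKM in DMSO. Much of that sum was FLT3 (217 FPKM in DMSO, 311 FPKM after corilagin), and single markers differed between the groups in both directions. The mean was higher after corilagin for CD86 (3.98 in DMSO and 11.8 FPKM), PTPRC (7.52 and 13.2 FPKM) and ITGAM (1.39 and 2.84 FPKM). It was lower for LYZ (68.5 and 42.8 FPKM), SPI1 (145 and 111 FPKM) and MPO (1.58 and 0.471 FPKM). The part of these markers in the results below was not tested. The 3 red cell markers were at 0 in every library, the 3 T cell markers summed to at most 0.0542 FPKM, the 3 fibroblast markers to at most 0.238 FPKM and the 3 epithelial markers to at most 2.15 FPKM, all of that from KRT8. The 3 B cell markers summed to 4.93 to 5.84 FPKM after corilagin and 5.27 to 6.54 FPKM in DMSO, with MS4A1 at 0. DMSO replicate 3 stood apart from the other DMSO libraries along the GC content of the transcripts, being higher for AT-rich and lower for GC-rich ones. In that trend the corilagin libraries lay close to DMSO replicate 3 at the GC content of each of the 10 genes. DMSO replicates 1 and 2 lay apart from both. The FPKM sums were 233342 to 236861 after corilagin, 239068 in DMSO replicate 3, and 266660 and 260759 in DMSO replicates 1 and 2. The trend touches the 10 genes, whose longest transcripts span 35.4% GC (SLC7A11) to 64.2% GC (GPX1). The results below therefore carry values with and without DMSO replicate 3, or against it alone, where it moved them. Leaving DMSO replicate 3 out keeps the controls furthest from corilagin in this trend, so such values are not cleaner.

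After corilagin the cells carried 4.09-fold more SLC7A11 mRNA, 2.99-fold more CHAC1 mRNA and 1.53-fold more GCLC mRNA, and GPX4 mRNA stood at 0.712 of its DMSO level. A mean of 1 FPKM or more was reached by 9 of them. Of these, 3 passed the threshold of limma (a linear model across all genes, Benjamini-Hochberg adjusted p under 0.05) as higher and 1 as lower, and 5 did not pass. Among all 9868 tested genes 11.9% were called higher and 13.5% lower. AIFM2 lay under 1 FPKM and was not tested with the others. Every corilagin library lay above every DMSO library for the same 3 genes and below for GPX4, beside 25.0% and 23.3% of all tested genes. The median log2 difference of the 9 genes was 0.13, against 0.03 over all tested genes. Because the genes were picked with this comparison known, nothing is read from these counts. In bulk RNA a lower level per cell and fewer cells of one state cannot be told apart.

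**Figure D1:**
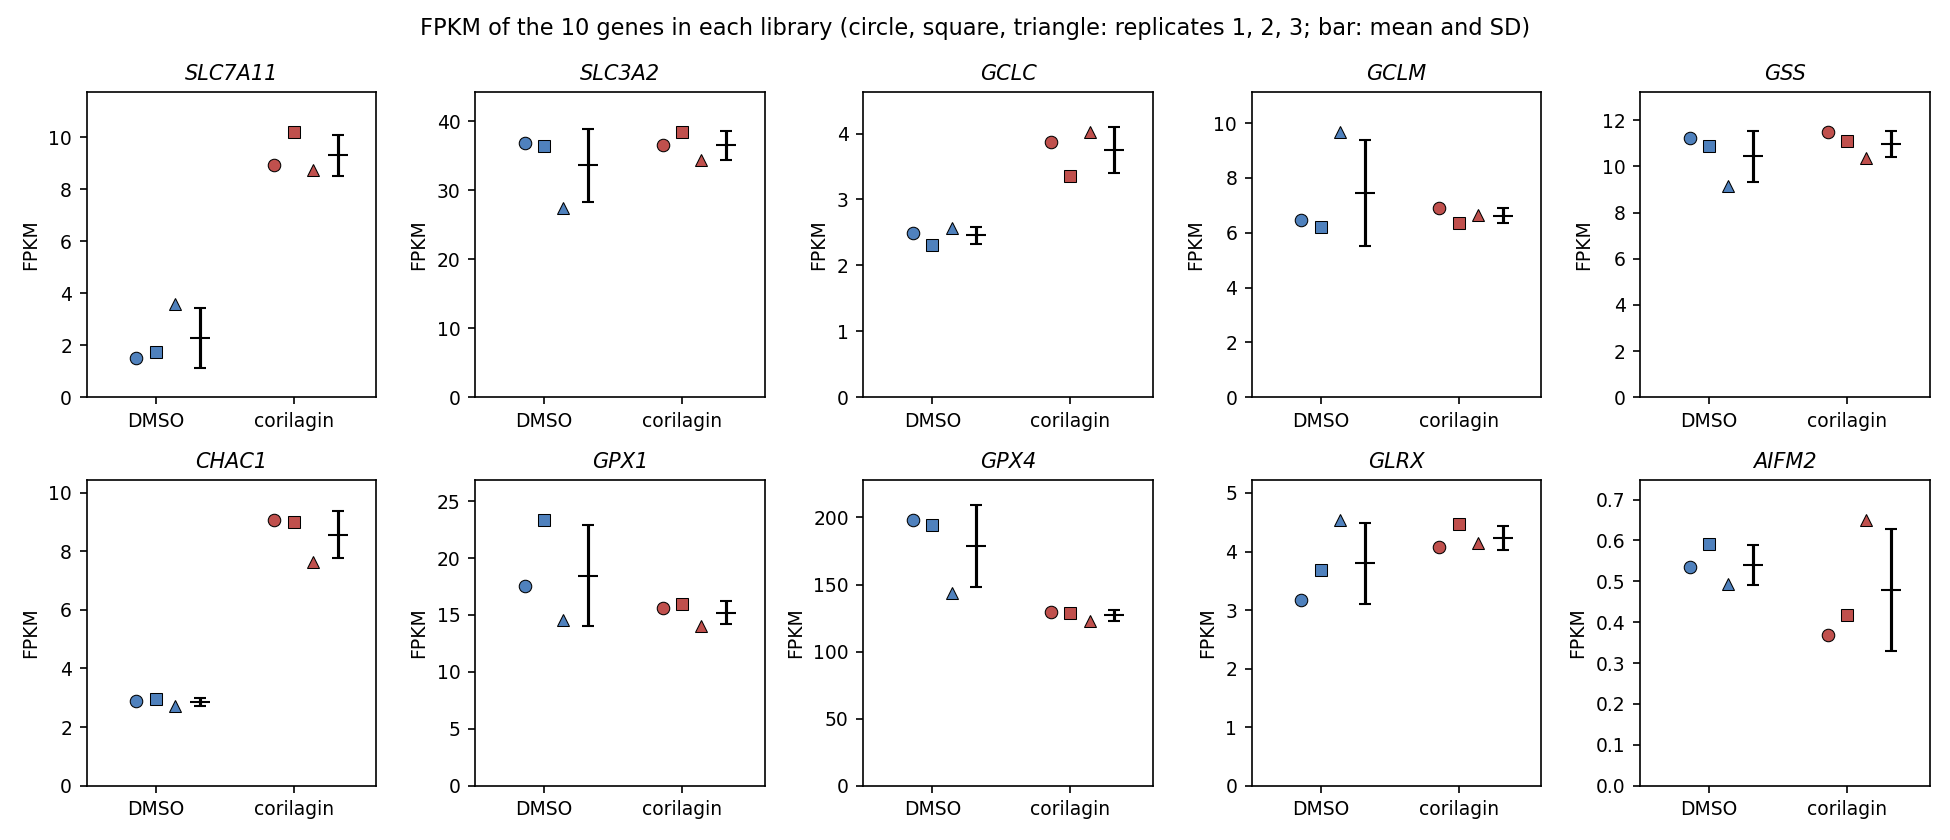
FPKM of the 10 genes in each library; blue symbols are DMSO, red symbols corilagin, the shape gives the replicate number, and the bar shows mean and SD (n = 3). SLC7A11, CHAC1 and GCLC sit higher in all corilagin libraries, GPX4 sits lower, and DMSO replicate 3 (triangle) is the highest DMSO library for SLC7A11, GCLC, GCLM and GLRX and the lowest for the other 6.

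SLC7A11 (ENSG00000151012, GRCh38 chromosome 4, 138164097 to 138242349, minus strand) lay at 8.93, 10.2 and 8.75 FPKM in corilagin replicates 1, 2 and 3, and at 1.52, 1.72 and 3.59 FPKM in the DMSO replicates. The groups did not overlap, and DMSO replicate 3 had 2.21 times the mean of the other DMSO libraries. These values rest on 1545 to 1926 fragments per corilagin library and 288 to 615 per DMSO library. The group means were 9.30 ± 0.793 and 2.28 ± 1.14 FPKM (SD, n = 3 per group). The log2 difference on the log2(FPKM + 1) scale was 1.70 (SE 0.22, 95% interval 1.19 to 2.22), and it ranked above 99.9% of all tested genes. Against DMSO replicates 1 and 2 the fold was 5.74, and against DMSO replicate 3 alone it was 2.59. With the GC trend of each library removed, the difference was 1.21 (95% interval 1.05 to 1.37). A non-coding gene, SLC7A11-AS1, overlaps 14081 bases of the locus on the opposite strand, and strand was not stated to be kept, so its reads could not be told apart.

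SLC3A2 (chromosome 11, 62856102 to 62888875, plus strand) was the second most abundant of the 10 mRNAs. Its level was 36.6, 38.5 and 34.4 FPKM after corilagin and 36.9, 36.5 and 27.5 FPKM in DMSO. The groups overlapped, with DMSO replicate 3 the lowest library. The difference of 0.13 (95% interval -0.17 to 0.42) did not pass. With the GC trend removed it was 0.30 (95% interval 0.17 to 0.43) and was called higher, and its sign turned without DMSO replicate 3 (-0.0076). The ratio of SLC7A11 to SLC3A2 FPKM, the light chain per heavy chain mRNA, was 0.244, 0.265 and 0.255 after corilagin and 0.0412, 0.0472 and 0.131 in DMSO. The ratio was above that of every DMSO library in all corilagin libraries, and no share over other gene pairs was computed. It was not corrected for the GC trend, which over the group means was 0.50 log2 units for SLC7A11 and -0.17 for SLC3A2.

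The subunits of glutamate-cysteine ligase parted. GCLC (ENSG00000001084, chromosome 6, 53497341 to 53616970, minus strand) lay at 3.88, 3.36 and 4.03 FPKM after corilagin and at 2.49, 2.31 and 2.57 FPKM in DMSO, with no overlap. Its means were 3.75 ± 0.351 and 2.45 ± 0.135 FPKM (SD, n = 3), and DMSO replicate 3 was at 1.07 times the mean of the other DMSO libraries. The log2 difference was 0.46 (SE 0.09, 95% interval 0.25 to 0.66) and 0.32 with the GC trend removed (95% interval 0.15 to 0.49), called in both fits. In the 6 fits that each leave out 1 library, it was called in 2 (without DMSO replicate 1 and without DMSO replicate 3) and lost in the other 4, while the difference itself ran from 0.42 to 0.52. The non-coding genes AL033397.1, on the same strand over 55682 bases, and AL033397.2, on the opposite strand over 3735 bases, overlap the locus. Neither has a row among the deposited identifiers, and their part in the GCLC values was not tested.

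GCLM (chromosome 1, 93885205 to 93909456, minus strand) lay at 6.90, 6.35 and 6.64 FPKM after corilagin and at 6.46, 6.19 and 9.68 FPKM in DMSO. DMSO replicate 1 lay within the corilagin range and replicate 2 just below it, and DMSO replicate 3 was above every other library. The difference of -0.12 (95% interval -0.49 to 0.24) did not pass. Its direction depended on the controls: the corilagin mean was 1.05 times that of DMSO replicates 1 and 2 and 0.685 of DMSO replicate 3. With the GC trend removed the gene was called lower, by -0.57 (95% interval -0.73 to -0.42). Per unit of GCLM, GCLC mRNA was at 0.562, 0.529 and 0.607 after corilagin against 0.385, 0.373 and 0.266 in DMSO, a ratio of FPKM that did not overlap between groups. No share over other gene pairs was computed. The ratio was not corrected for the GC trend, which over the group means was 0.14 for GCLC and 0.45 for GCLM.

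GSS, glutathione synthetase (chromosome 20, 34928433 to 34956027, minus strand), lay at 11.5, 11.1 and 10.4 FPKM after corilagin and at 11.2, 10.9 and 9.17 FPKM in DMSO. The ranges overlapped and the difference of 0.07 (95% interval -0.16 to 0.31) did not pass. It was 0.20 and called higher with the GC trend removed (95% interval 0.08 to 0.31), and -0.011 without DMSO replicate 3.

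**Figure D2:**
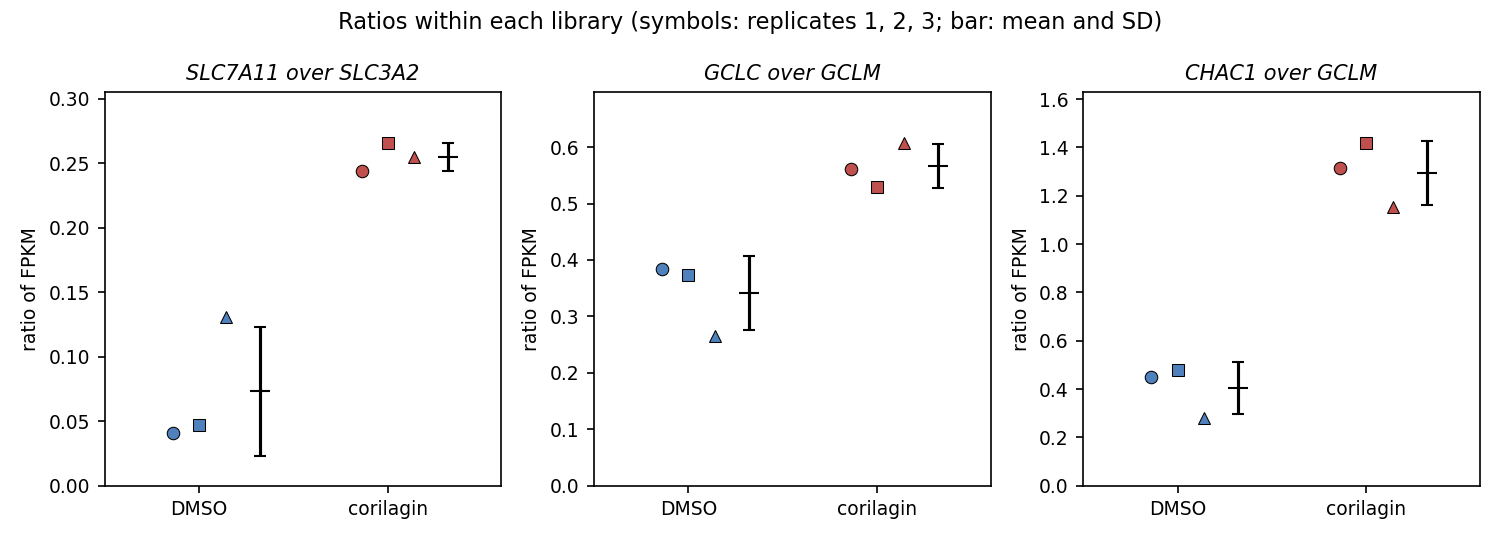
Ratios of FPKM between 2 of the genes within each library, with DMSO in blue, corilagin in red, symbols for replicates 1 to 3 and a bar for mean and SD (n = 3). All corilagin libraries lie above all DMSO libraries in the 3 ratios shown, from 0.244 to 0.265 against 0.0412 to 0.131 for SLC7A11 over SLC3A2. DMSO replicate 3 is the highest DMSO library there and the lowest for the ratios over GCLM. Of the ratios not shown, CHAC1 over GCLC also lay above in all corilagin libraries. GSS over GCLC lay below in all of them (mean 2.95 against 4.27 in DMSO), and GPX4 over GPX1 overlapped. No share over other gene pairs was computed, and no ratio was corrected for the GC trend.

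CHAC1 (ENSG00000128965, chromosome 15, 40952962 to 40956519, plus strand) had closely spaced controls. It lay at 9.06, 8.997 and 7.65 FPKM after corilagin and at 2.90, 2.96 and 2.72 FPKM in DMSO. All corilagin values were above all DMSO values, and DMSO replicate 3 was at 0.926 of the mean of the other DMSO libraries. From 287 to 402 fragments per corilagin library and 99 to 122 per DMSO library, the means were 8.57 ± 0.798 and 2.86 ± 0.130 FPKM (SD, n = 3). The log2 difference was 1.31 (SE 0.09, 95% interval 1.09 to 1.52), above 99.8% of all tested genes, and 1.53 with the GC trend removed (95% interval 1.34 to 1.72). The fold was 2.92 against DMSO replicates 1 and 2 and 3.16 against DMSO replicate 3. CHAC1 and SLC7A11 were called in all 6 fits that leave out 1 library. Set against GCLM, CHAC1 mRNA was at 0.403 ± 0.107 in DMSO and 1.29 ± 0.133 after corilagin (ratio of FPKM, SD, n = 3).

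The promoters of CHAC1 and the other genes were searched for letters that the regulators of this pathway are known to bind. The windows were the 250 bases before the RefSeq gene start (GRCh38.p14), and 8 of the 10 genes had one (not SLC7A11 or GSS). The search therefore cannot speak to letters shared by CHAC1 and SLC7A11. The motifs were TGATGNAA, the core of the C/EBP-ATF element bound by ATF4, TGACGTCA, the cAMP response element, and TGACNNNGC, the core of the antioxidant response element bound by NRF2, on both strands. Of 35114 promoter windows of that length, 3.14%, 1.65% and 10.9% held them. CHAC1 held the first, on the opposite strand 209 to 202 bases before the start. SLC3A2, GCLM and AIFM2 held the third, and GCLC, GPX1, GPX4 and GLRX held none of the 3. The 4 matches are shown within 30 bases, 5′ to 3′ on the strand of the gene, with the motif in capitals. All 4 stretches overlap exons that GENCODE release 29 assigns to the same gene.
CHAC1 (chr15:40953251-40953280, plus strand): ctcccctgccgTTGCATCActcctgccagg
SLC3A2 (chr11:62881652-62881681, plus strand): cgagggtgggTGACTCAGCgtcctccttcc
GCLM (chr1:93909445-93909474, minus strand): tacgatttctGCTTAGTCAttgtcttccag
AIFM2 (chr10:70132828-70132857, minus strand): cagcacgagtGCTGAGTCAcgccccgcccg

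The matches in SLC3A2 and AIFM2 also hold TGANTCA, the AP-1 letters, and that of GCLM does not. A match describes letters in this window and was not tested for binding.

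GPX4 (ENSG00000167468, chromosome 19, 1103926 to 1106791, plus strand), a selenoprotein, was the most abundant of the 10 mRNAs and stood above 98.7% of all tested genes in DMSO. It lay at 129.8, 129.0 and 122.5 FPKM after corilagin and at 198, 194 and 143 FPKM in DMSO. No values overlapped, but DMSO replicate 3 lay nearer to the corilagin libraries than to the other controls. The means were 127 ± 3.99 and 179 ± 30.5 FPKM (SD, n = 3). The log2 difference was -0.47 (SE 0.13, 95% interval -0.78 to -0.17), which passed, and -0.25 with the GC trend removed (95% interval -0.37 to -0.13), which passed too. The corilagin mean was 0.648 of DMSO replicates 1 and 2 and 0.886 of DMSO replicate 3. The call was lost in 5 of the 6 fits that leave out 1 library, with differences of -0.39 to -0.49, and kept without DMSO replicate 3 (-0.62).

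GPX1, the cytosolic selenoprotein that reduces hydrogen peroxide (chromosome 3, 49357171 to 49358600, minus strand, listed as a polymorphic pseudogene in GENCODE release 29), lay at 15.6, 16.0 and 14.04 FPKM after corilagin and at 17.5, 23.3 and 14.5 FPKM in DMSO. The ranges overlapped, and DMSO replicate 2 was the highest library. The difference of -0.24 (95% interval -0.62 to 0.14) did not pass, was close to 0 with the GC trend removed (95% interval -0.23 to 0.23) and was 0.059 against DMSO replicate 3 alone. Without DMSO replicate 3 it was called lower (-0.39). The ratio of GPX4 to GPX1 FPKM overlapped between groups, at 8.37 ± 0.325 after corilagin and 9.83 ± 1.47 in DMSO (SD, n = 3).

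GLRX, the cytosolic glutaredoxin that removes glutathione from protein thiols (chromosome 5, 95751319 to 95823005, minus strand), lay at 4.08, 4.47 and 4.14 FPKM after corilagin and at 3.17, 3.69 and 4.53 FPKM in DMSO. DMSO replicate 3 exceeded every corilagin library. The difference of 0.13 (95% interval -0.14 to 0.41) did not pass, and it was -0.082 against DMSO replicate 3 alone and called higher without that library (0.24). The protein-coding gene RHOBTB3 overlaps GLRX on the opposite strand over 71687 bases (9.61 FPKM in DMSO, 12.6 FPKM after corilagin), and its part in the GLRX values was not tested. AIFM2 (chromosome 10, 70098223 to 70132934, minus strand) was at 0.369, 0.418 and 0.649 FPKM after corilagin and at 0.535, 0.592 and 0.493 FPKM in DMSO, from 41 to 61 fragments per library. The ranges overlapped, and in the fit with no filter on low genes its difference was -0.06 (95% interval -0.24 to 0.12).

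**Figure D3:**
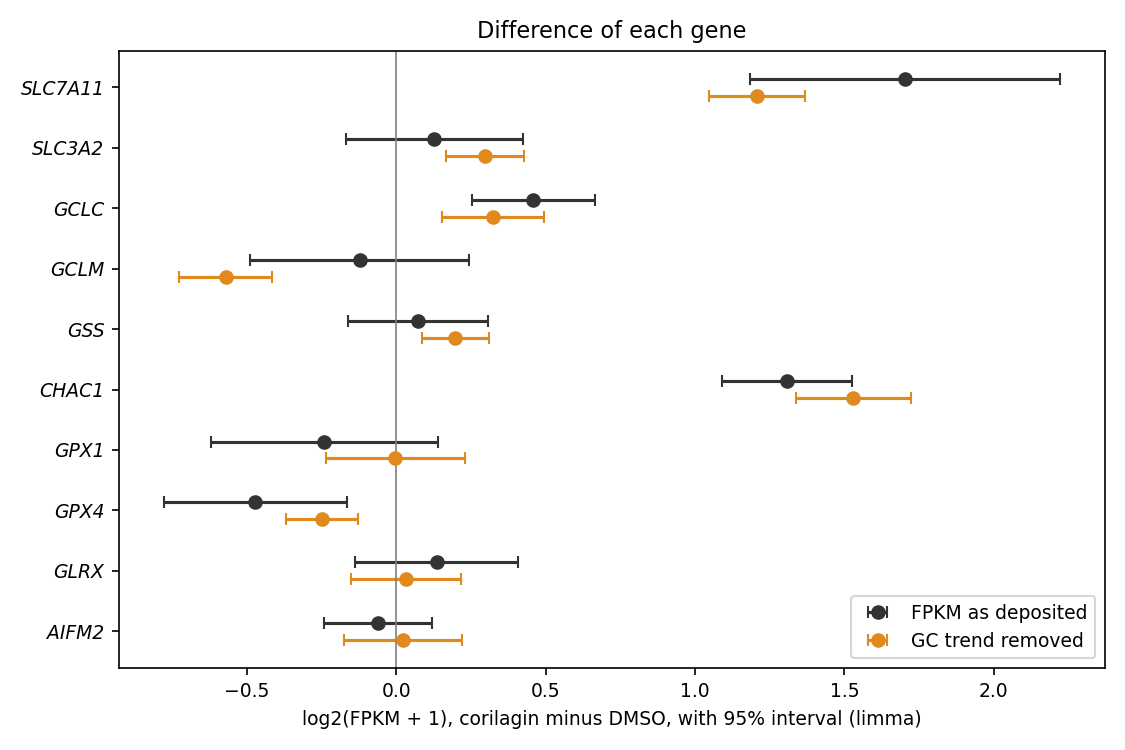
Difference between corilagin and DMSO on the log2(FPKM + 1) scale with its 95% interval from limma, for the values as deposited (black) and with each library's GC trend removed (orange); AIFM2 comes from the fits with no filter on low genes. SLC7A11 moves from 1.70 to 1.21, CHAC1 from 1.31 to 1.53 and GCLM from -0.12 to -0.57, and the intervals with the trend removed are narrower for 9 of the genes and wider for AIFM2.

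The GC content of the transcripts moved with these shifts. In DMSO replicate 3, SLC7A11 and GCLM (35.4% and 37.3% GC) lay 0.81 and 0.54 log2 units above the other DMSO libraries, where the trend across all genes at their GC content was 0.76 and 0.68. GPX4 and GPX1 (62.5% and 64.2% GC) both lay at -0.45, beside a trend of -0.31 and -0.32. CHAC1, at 62.6% GC, lay at -0.08 beside the same trend of -0.31, and GCLC, at 44.3% GC, lay at 0.07 beside 0.18. Over the group means the trend alone amounted to 0.50 for SLC7A11, 0.45 for GCLM and -0.22 for GPX4 and CHAC1. For each of these genes the trend had the same sign in DMSO replicate 3 against the other DMSO libraries. With it removed, 5 of the 9 genes were called higher (SLC7A11, CHAC1, GCLC, SLC3A2 and GSS) and 2 lower (GCLM and GPX4), beside 21.4% and 23.0% of 9859 genes. What sets the libraries apart by GC content was not tested, and the correction also takes out any treatment difference that follows GC content.

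**Figure D4:**
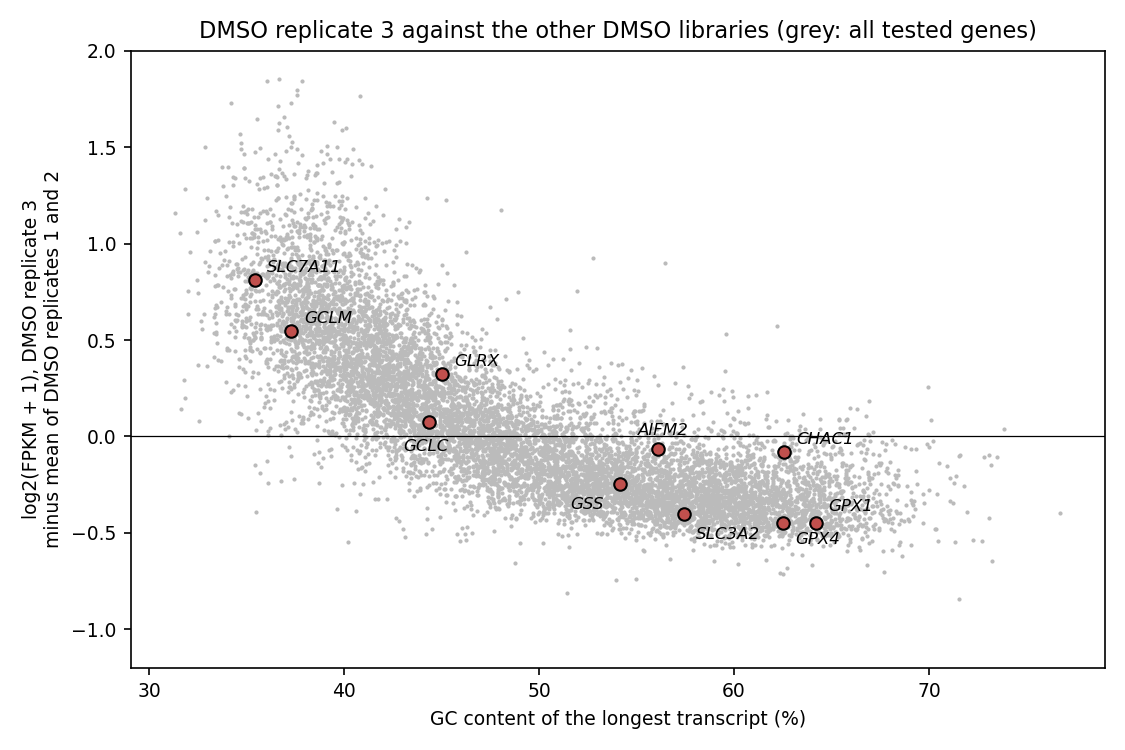
DMSO replicate 3 minus the mean of DMSO replicates 1 and 2, in log2(FPKM + 1), against the GC content of the longest transcript in percent; grey points are all tested genes and red points the 10 genes. SLC7A11 and GCLM sit at 0.81 and 0.54 on the AT-rich side, and GPX1 and GPX4 sit at -0.45 on the GC-rich side.

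The order of the mean levels differed between the groups. In DMSO the means ran from GPX4 (179 FPKM) over SLC3A2 (33.6), GPX1 (18.5), GSS (10.4), GCLM (7.44), GLRX (3.80), CHAC1 (2.86), GCLC (2.45) and SLC7A11 (2.28) to AIFM2 (0.540). The neighbours GSS and GCLM overlapped across the DMSO libraries, and so did GCLC and SLC7A11. The DMSO values of SLC7A11 also overlapped those of CHAC1 and GLRX. In DMSO replicate 3, SLC7A11 (3.59 FPKM) stood above CHAC1 (2.72 FPKM) and GCLC (2.57 FPKM). After corilagin SLC7A11 (9.30 FPKM) and CHAC1 (8.57 FPKM) stood between GSS (10.99) and GCLM (6.63), and their own values overlapped.

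The tested genes whose profile over the 6 libraries lay closest to that of SLC7A11, by distance between centred log2 values among the 6567 protein-coding genes that reached a mean of 5 FPKM, were LACC1, HMGCS1 and TFRC. Their distances were 0.31, 0.45 and 0.50 log2 units and their Pearson r 0.994, 0.995 and 0.980. The highest DMSO value of LACC1 was also that of replicate 3 (10.3 FPKM, where the DMSO mean was 6.43 FPKM). For CHAC1 they were DDIT4, TXNIP and NCF1 (distances 0.17, 0.27 and 0.35, r of 0.994, 0.991 and 0.979). DDIT4 is a stress-induced inhibitor of mTORC1, and TXNIP is the thioredoxin-binding protein named in the series title. NCF1 is a subunit of the phagocyte NADPH oxidase that has near-identical pseudogene copies, so its reads are uncertain. For GPX4, the member with the largest fall, they were RPS2, PFN1 and UBA1 (distances of 0.05 each, r of 0.999, 0.998 and 0.999). All of these share the same 6 libraries, and the difference between the groups, on which the members were chosen, enters each distance and r. The likeness is therefore a description.

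Beyond the 10 genes, 153 genes of the surrounding pathway were listed in 9 groups, and 112 of them reached a mean of 1 FPKM. Of these, 19 were called higher (17.0%, against 11.9% of all tested genes) and 15 lower (13.4%, against 13.5%). The lists, like the 10 genes, were drawn up with earlier results of these data known, so these shares and the adjusted p-values of listed genes describe the data and are not independent evidence. The median log2 difference was 0.06, against 0.03 over all tested genes. With the GC trend removed, 31 were higher (27.7%, against 21.4% of all genes) and 25 lower (22.3%, against 23.0%), and 30 of the 34 calls kept their direction. When each library was left out in turn, 6 of the 34 were called every time: CTH, DHODH, TFRC, ATF3, DDIT3 and TRIB3. The counts of each list below stand beside the shares of all tested genes, 11.9% higher and 13.5% lower. Nothing is read from those counts.

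Against DMSO replicate 3 alone all 34 genes kept their sign, but the log2 difference was smaller by over 1.5 times for 17 of them and larger for 1, GGT5 (0.77, from 0.51). Among the genes called higher it was 0.27 for SLC25A40, 0.23 for GLRX2 and for ACSL4, 0.51 for SLC38A1, 0.28 for SLC38A2, 0.34 for CEBPG, 0.53 for NFE2L2 and 0.24 for BACH1. Among those called lower it was -0.45 for SLC25A39, -0.24 for PRDX6, -0.39 for GSTP1, -0.23 for AHCY, -0.26 for SLC43A1, -0.16 for EEFSEC, -0.42 for SELENON, -0.19 for SELENOO and -0.23 for MAFK. The folds given for these genes below are over all 3 DMSO libraries.

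**Figure D5:**
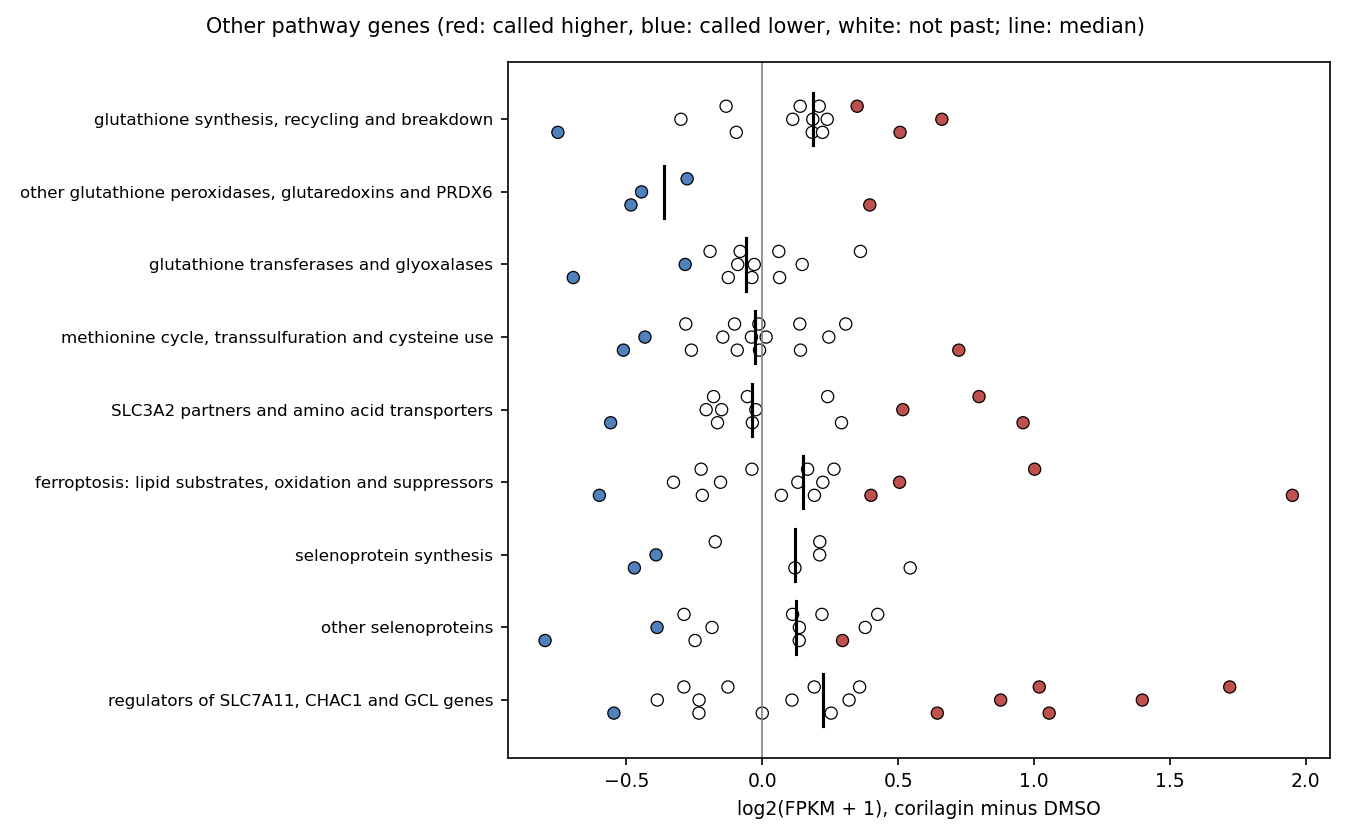
Difference of each tested gene of the 9 pathway lists on the log2(FPKM + 1) scale, corilagin minus DMSO; each point is a gene, red if called higher, blue if called lower and white if not past the threshold, and the black line is the list's median. The regulators reach the furthest right apart from TFRC (1.95), with ATF3 at 1.72, while 3 of the 4 tested peroxidases and glutaredoxins lie below 0.

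Among regulators of SLC7A11, CHAC1 and the ligase genes, 6 of 18 were called higher and 1 lower, with a median of 0.22. ATF3, a stress-induced factor, rose from 1.88 ± 0.205 to 8.48 ± 0.830 FPKM, a 4.52-fold difference (log2 difference 1.72, limma adjusted p = 0.00101). DDIT3 (CHOP) and TRIB3, both induced by ATF4 and named here after their values were seen, rose 3.58-fold and 2.09-fold. ATF4 itself had 168 ± 16.0 FPKM in DMSO and 199.5 ± 5.46 FPKM after corilagin, with all corilagin libraries above all DMSO libraries (log2 difference 0.25, adjusted p = 0.0714), and it was called higher with the GC trend removed (0.41, adjusted p = 0.000372). NFE2L2, which encodes NRF2, rose 2.19-fold from 5.597 ± 2.24 FPKM, with DMSO replicate 3 at 8.14 FPKM (difference 1.06, adjusted p = 0.0173). KEAP1, the adaptor that targets NRF2 for degradation, was at 48.7 ± 1.37 FPKM against 57.8 ± 8.48 FPKM and did not pass (adjusted p = 0.155). BACH1, a repressor at antioxidant elements, rose 1.88-fold, but DMSO replicate 3 had 8.60 FPKM and the corilagin mean was 10.3 FPKM. CEBPG, a partner of ATF4, rose 1.56-fold. MAFK, a small MAF protein, fell to 0.647 of DMSO. ATF3, DDIT3 and TRIB3 kept their calls whichever library was left out.

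In the list of glutathione synthesis, recycling and breakdown, 3 of 14 tested genes were higher and 1 lower. GGT7 and GGT5, members of the gamma-glutamyltransferase family, rose 1.32-fold and 1.85-fold, the latter from 0.941 FPKM. SLC25A40 rose 1.59-fold, while its relative SLC25A39, the mitochondrial glutathione carrier, fell from 34.4 ± 6.05 to 19.8 ± 0.426 FPKM (log2 difference -0.75, limma adjusted p = 0.0119). The call of SLC25A40 ended with the GC trend removed (difference 0.66 as deposited and 0.14 then). GSR, which reduces oxidised glutathione, had 28.6 ± 3.91 FPKM in DMSO and 33.1 ± 1.06 FPKM after corilagin, and did not pass (adjusted p = 0.170). CHAC2, the constitutive relative of CHAC1, was at 6.26 ± 0.313 and 5.83 ± 1.65 FPKM (difference 0.11, 95% interval -0.27 to 0.49), and with the GC trend removed it was called lower (-0.35, 95% interval -0.49 to -0.22). GGCT, another gene of this list, averaged 7.82 ± 0.312 FPKM with corilagin against 7.05 ± 1.13 FPKM with DMSO, and did not pass (limma adjusted p = 0.361).

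All 4 tested members of the list of other peroxidases, glutaredoxins and PRDX6 were called, 3 of them lower. GLRX5, a mitochondrial glutaredoxin of iron-sulfur cluster assembly, fell to 0.705 of DMSO, PRDX6, a peroxiredoxin that draws on glutathione, to 0.728, and GLRX3 to 0.814. These 3 were also lower with the GC trend removed. GLRX2 rose 1.39-fold, and its sign turned with the trend removed (-0.094). Among glutathione transferases and glyoxalases none of 12 was higher and 2 were lower by limma. At an unadjusted p under 0.05 limma gave 1 higher, and limma-voom on recovered fragments gave 0 higher at the adjusted and 1 at the unadjusted threshold. The genes called lower were GSTP1 from 209 ± 36.4 to 127 ± 0.763 FPKM (difference -0.70, adjusted p = 0.0142) and MGST2 to 0.811 of DMSO, a call that ended on scaling the libraries to equal FPKM sums (limma adjusted p = 0.0873). In the selenoprotein synthesis list, SEPHS1 and EEFSEC, the selenocysteine elongation factor, fell to 0.754 and 0.697 of DMSO, and the other 5 tested genes did not pass. Of 12 other selenoproteins tested, SELENOK rose 1.24-fold and SELENON and SELENOO fell to 0.513 and 0.746. The calls of SELENOK and SELENOO ended with the GC trend removed.

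Of 16 tested genes of the methionine cycle, transsulfuration and cysteine use, 1 was higher and 2 lower. CTH, the enzyme that makes cysteine from cystathionine, rose 2.05-fold from 1.68 ± 0.201 to 3.44 ± 0.549 FPKM (difference 0.72, limma adjusted p = 0.00818). AHCY, which clears S-adenosylhomocysteine, and NFS1, the cysteine desulfurase, fell to 0.691 and 0.699 of DMSO. Among SLC3A2 partners and other amino acid transporters, 3 of 13 rose and 1 fell. SLC38A1, SLC38A2 and SLC1A4, carriers of neutral amino acids, rose 2.08-fold, 1.70-fold and 1.44-fold, and SLC43A1 fell to 0.656. In DMSO replicate 3, SLC38A1 and SLC38A2 had 6.94 and 67.8 FPKM, where the corilagin means were 10.3 and 82.7 FPKM. SLC7A5, the main light chain partner of SLC3A2, was at 76.3 ± 3.17 and 80.3 ± 15.6 FPKM (difference -0.05, 95% interval -0.40 to 0.29), and its sign turned with the GC trend removed (0.15) and on scaling the libraries to equal FPKM sums (0.065).

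In the ferroptosis list 4 of 16 tested genes were higher and 1 lower. TFRC, the transferrin receptor, rose 3.97-fold to 84.8 ± 1.97 FPKM. ACSL4, which loads polyunsaturated fatty acids into phospholipid synthesis, rose 1.90-fold (limma adjusted p = 0.0478), but DMSO replicate 3 lay at 27.6 FPKM, near the corilagin mean of 32.5 ± 0.199 FPKM, and the difference was 0.23 against that library alone. ALOX5AP, the 5-lipoxygenase activating protein, rose 1.42-fold from 108 ± 4.27 FPKM, and SAT1, a polyamine acetyltransferase, 1.34-fold. The lipoxygenase gene ALOX5 itself averaged 0.0278 FPKM in DMSO and 0.00870 FPKM after corilagin and was not tested. DHODH, a mitochondrial enzyme of pyrimidine synthesis that also reduces coenzyme Q, fell from 3.61 ± 0.247 to 2.04 ± 0.0621 FPKM (difference -0.60, limma adjusted p = 0.00479), a call kept whichever library was left out.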

How the data were processed

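The table deposited by the authors gives FPKM in 6 libraries of poly(A) RNA, with 20036 identifiers from Ensembl, and the columns were matched to samples by the library names in the labels. The submitters' processing notes name fastp 0.22.0, HISAT2 2.1.0, HTSeq 0.9.1, DESeq 1.38.3 and GRCh38, without settings. FPKM depends on the library total, so a few abundant genes can shift all others. The fragments behind the values were recovered from their whole steps for 15919 of 15921 genes above 0, and PCR copies cannot be told apart, so depth covers counting error only. Symbols were matched for 19443 identifiers, and coordinates and the GC content of each gene's longest transcript came from GENCODE release 29 (19852 identifiers).

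Groups of 3 libraries were compared on log2(FPKM + 1), without covariates, using the moderated 2-sided test of limma 3.58.1 (R 4.3.3, prior variance following a trend). It ran on the 9868 genes that averaged 1 FPKM or more, their p-values were adjusted together by Benjamini-Hochberg, and the threshold was 0.05. Folds are ratios of mean FPKM. The fit was tested on simulated data that held no GC trend and no library set apart from its group, so that test does not cover either. The GC trend was removed from each library with a natural spline with 5 degrees of freedom. The 10 genes, the lists and this correction were chosen with earlier results of these data known, so the members' calls are given without p-values. Named genes were the 10, up to 2 rises and 2 falls per list with a mean of at least 5 FPKM, 10 fixed genes (ATF4, NFE2L2, KEAP1, BACH1, GSR, CHAC2, GGCT, SLC7A5, ACSL4 and CTH), 3 genes most like SLC7A11, CHAC1 and the member that fell most, and genes behind counts of 5 or fewer. ALOX5 was named beside ALOX5AP. Promoters are from RefSeq.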

Additional observations from a re-analysis of the deposited data

How the results depend on the processing

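SLC7A11 and CHAC1 were called higher under all alternatives run, with log2 differences of 1.16 to 2.14 and 1.27 to 1.58. Over all genes, 1171 were called higher and 1331 lower. The GC trend removed gave 2113 higher and 2267 lower, DMSO replicate 3 as the only control gave 1916 higher, with that lone library assumed to vary like the others, and a mean of at least 5 FPKM gave 713 higher, with fewer genes tested. Leaving out 1 library gave 131 to 4030 higher and 176 to 3597 lower, the highest without DMSO replicate 3. That fit keeps only the controls that lay apart from the corilagin libraries in the GC trend. Scaling to equal FPKM sums moved the median of all genes from 0.03 to 0.14 and the share of calls that were higher from 46.8% to 60.5%. Of the 10 genes, 5 were higher and 2 lower both with DMSO replicate 3 as the only control and after removing the GC trend, 0 were lower by limma without a filter (1 at an unadjusted p under 0.05, and 1 by limma-voom with the filter), and 2 to 4 were higher and 0 to 2 lower without 1 library (1 to 2 lower at an unadjusted p under 0.05). Of the other pathway genes, 37 were higher with DMSO replicate 3 as the only control, 31 higher and 25 lower after removing the GC trend, 29 higher with equal FPKM sums, and 5 to 47 higher and 1 to 43 lower without 1 library. Over the fits without 1 library, log2 differences ran from -0.0076 (without DMSO replicate 3) to 0.20 for SLC3A2, -0.23 to 0.058 (without DMSO replicate 3) for GCLM, -0.011 (without DMSO replicate 3) to 0.12 for GSS, -0.00049 (without DMSO replicate 1) to 0.30 for CHAC2 and -0.22 to 0.048 (without DMSO replicate 1) for SLC7A5. Signs turned with DMSO replicate 3 as the only control for GPX1 (0.059), GLRX (-0.082), KEAP1 (0.020), CHAC2 (-0.27), GGCT (-0.060) and SLC7A5 (0.28), and with the GC trend removed for CHAC2 (-0.35), GGCT (-0.058), GLRX2 (-0.094) and SLC7A5 (0.15). They also turned for SLC7A5 with equal FPKM sums (0.065) and without DMSO replicate 2 (0.012), and for AIFM2 without a filter and with the GC trend removed (0.022), a fit added after seeing the data. Calls also ended for EEFSEC and MAFK with DMSO replicate 3 as the only control, for GGT7 with median-of-ratios scaling, for MGST2, GLRX3, ACSL4 and EEFSEC with equal FPKM sums, and without a filter for 12 named genes: GPX4, SLC25A40, GGT7, GGT5, GLRX2, SLC38A2, SLC43A1, ACSL4, EEFSEC, SELENOO, MAFK and BACH1. The cause was not tested. The labels do not say whether replicate numbers mark a pairing, and the correlations do not settle it: same-numbered libraries deviated together with correlations of 0.28, 0.079 and 0.339, 5 of 6 libraries correlated best with their own number, and the replicate block gave 1547 higher and 1330 lower over all genes and 3 higher and 1 lower among the 10, and ended the calls of MGST2, GLRX3 and SELENOK. Among the 10, AIFM2 has the fewest fragments, 41 to 61 per library.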
